A study of Mus musculus with 6 samples.

Results

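The genes followed here are 10 components and targets of Norrin-FZD4 and β-catenin signalling in retinal vascular endothelial cells (VECs). They were chosen by gene name, and all 10 are among the 55487 genes of the deposited table. RNA was measured in VECs sorted at postnatal day 7.5 (P7.5) from 3 control (tdTomato FL/+;Pdgf-icreER) and 3 Bmal1;CKO (Bmal1 FL/FL;tdTomato FL/+;Pdgf-icreER) mouse pups of C57BL/6J background. Tamoxifen was given to both groups between P0.5 and P2.5, both carry the Cre transgene and the tdTomato reporter, and no floxed Bmal1 allele is listed for the control. The Pdgf-icreER transgene, an endothelial driver, also expresses GFP, and cells positive for both GFP and tdTomato were collected at ZT6, with light onset at ZT0. Libraries are numbered by the deposited columns, which carry the group name, with the control animals as 1 to 3 and the Bmal1;CKO animals as 4 to 6.

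Norrin is a secreted ligand that in the retina comes mainly from Müller glia. It binds the receptor FZD4 on endothelial cells, together with the co-receptor LRP5 or LRP6 and the tetraspanin TSPAN12, and this complex stabilizes β-catenin, which then acts with TCF/LEF factors on target genes. In retinal vessels the pathway is known for its role in the growth of the deeper vascular layers and in the blood-retina barrier, and loss of its components causes inherited retinal vascular disease. AXIN2, NKD1 and APCDD1 are target genes whose products dampen Wnt signalling, and LEF1 is both a target and a DNA-binding partner of β-catenin.

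Between 71145068 and 104017800 reads per library were counted on genes, and values are given as normalized counts, the reads divided by the size factor of the library. Bmal1, listed as Arntl, had 1700.4, 3489 and 2928 normalized counts in control and 1779, 2747 and 2415 in Bmal1;CKO. The fitted difference on the log2 scale was -0.19 (limma-trend, standard error 0.36, adjusted p = 0.924). The groups overlapped, and without control library 2 the difference was 0.03. The gene-level count covers all exons and cannot show the loss of the floxed part alone, so it does not check the genotype labels. Control library 1 stood apart, with 21598 genes detected against 22142 to 27904 in the others. In it 945 genes had 0 reads while every other library had at least 10, against 2 to 105 such genes in any other library. The 14 endothelial markers, among them Cdh5, Kdr and Pecam1, summed to 111907 to 198604 normalized counts in control and 64270.2 to 144624 in Bmal1;CKO. The 8 microglial markers, among them C1qa, C1qb and Cx3cr1, summed to 1024698 to 2911685 and 1491113 to 2860303. The 5 astrocyte markers summed to 520.5 to 6168 and 1355 to 2498. In each library the microglial marker sum was above the endothelial one. Each library thus held RNA of cells other than VECs, and the levels given here are those of whole libraries. In such bulk samples fewer cells of a type cannot be told apart from less RNA per cell. All 14 endothelial markers had a lower mean log2 level in Bmal1;CKO (median log2 fold change -0.50, 0 of 14 at an unadjusted p under 0.05 by limma-trend). Of the 8 microglial markers, 7 had a higher one (median 0.34, 0 of 8 at that threshold).

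All 10 genes were expressed, and all passed the filter of at least 10 reads in at least 3 libraries. By limma-trend 0 of the 10 had an adjusted p under 0.05 (0.0% of the 20459 genes tested), and the same count of 0 came from edgeR, DESeq2 and limma-voom. Apcdd1, lower in Bmal1;CKO, was the 1 of 10 with an unadjusted p under 0.05 (4.92% of all genes tested, 1.75% lower and 3.17% higher), and each of those other tests gave the same count. The 3 libraries of one group lay apart from the 3 of the other in 1 of 10, Lrp6, which was lower (11.2% of all genes tested, 4.54% lower and 6.62% higher). Both counts were near the background. The absolute log2 fold change was over 1 in 3 of 10, Ndp, Lrp5 and Apcdd1 (25.3% of all genes tested). Over the 10 genes its median was -0.15, with 6 lower (43.4% of all genes tested) and 4 higher (56.6%), against a median of 0.11 over all genes tested. Under edgeR (TMM) the median of all genes tested was -0.03 and 52.1% of them were lower, and relative to either median each of the 10 genes kept its direction.

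**Figure D1:**
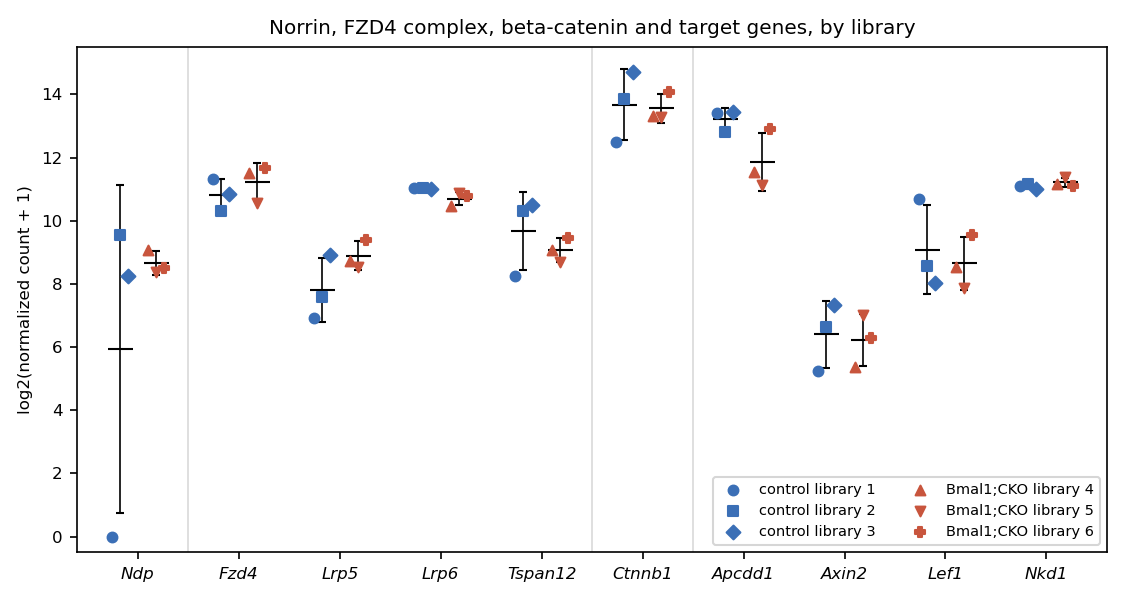
Level of each of the 10 genes in each library, as log2(normalized count + 1), with the mean (bar) and SD (n = 3) of each group, and vertical lines between ligand, receptor complex, transducer and targets. Lrp6 and Nkd1 lie in a narrow band, Ndp is at 0 in control library 1, and Apcdd1 is lower in Bmal1;CKO libraries 4 and 5 than in any control library.

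Ndp, the gene of Norrin, had 0, 748 and 305 normalized counts in control libraries 1 to 3 and 541, 334 and 361 in Bmal1;CKO libraries 4 to 6. It lies on the reverse strand of the X chromosome of GRCm38 from 16885521 to 16911774. Control library 1 alone lacked the transcript, with 0 reads of 87212411, which allows up to 3.69 normalized counts from counting error alone, and the other 5 libraries overlapped between groups. The group means were 351 ± 376 and 412 ± 113 (SD, n = 3 each). The fitted log2 fold change of 2.72 (standard error 2.26, adjusted p = 0.883 from limma-trend) rested on control library 1, since it was -0.25 without it and 0.23 by edgeR.

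As Norrin is a glial product, its transcript was read beside the Müller glia markers. The 6 such markers summed to 29645 to 34078 normalized counts in control and 31556 to 44628 in Bmal1;CKO. All 4 that were tested were higher in Bmal1;CKO (56.6% of all genes tested), with a median log2 fold change of 0.32. By limma-trend 1 of the 4 had an unadjusted p under 0.05 (4.92% of all genes tested). The groups did not overlap in 1 of the 4 (11.2% of all genes tested). Rlbp1, which encodes the retinoid carrier CRALBP, had 14831 to 21263 normalized counts over the 6 libraries, while Aqp4, a water channel of mature glia, had at most 21.4. Control library 1, with no Ndp read, had the highest Müller glia marker sum of the 3 controls but the lowest mean log2 level of the 6 markers in any library, at 8.28 against 8.50 to 9.48 in the others. Relative to the mean log2 level of the 6 markers, Ndp was higher in Bmal1;CKO by 2.30 on the log2 scale (two-sided exact permutation test, p = 0.8), a difference that was -0.48 without control library 1. The Ndp transcript was thus read in 5 of the 6 libraries, while Müller glia markers were read in all 6, and its cellular source was not tested.

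Fzd4, the gene of the Norrin receptor, had 2542, 1265 and 1821 normalized counts in control and 2889, 1498 and 3256 in Bmal1;CKO. The groups overlapped, with means of 1876 ± 640.3 and 2548 ± 928 (SD, n = 3 each). On the log2 scale the difference was 0.42 (standard error 0.41, 95% confidence interval -0.54 to 1.38, adjusted p = 0.883 from limma-trend), and it stayed between 0.17 and 0.77 with 1 library left out. Fzd4 lies on the forward strand of chromosome 7 from 89404355 to 89413134, 23.8 Mb from Bmal1 on the same chromosome.

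Fzd4 was set beside the other 9 Frizzled receptor genes per kb of exon, a scale on which levels of different genes can be compared. It took 19.0% to 39.9% of the summed Frizzled level in the control libraries and 20.3% to 34.8% in the Bmal1;CKO libraries. It was the highest Frizzled in libraries 3, 4 and 6 and the second in libraries 1 and 2, where Fzd6, a receptor best known from planar cell polarity, ranked above it. In Bmal1;CKO library 5 it came behind Fzd9 and Fzd2. Fzd4 was therefore among the 3 highest of the 10 Frizzled genes in every library.

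Lrp5, the co-receptor whose loss impairs retinal vessels, had 121, 190.2 and 484 normalized counts in control and 425, 371 and 676 in Bmal1;CKO. Control libraries 1 and 2 were the lowest, while control library 3 lay within the Bmal1;CKO range. On the log2 scale the difference was 1.08 (standard error 0.67, 95% confidence interval -0.47 to 2.64, adjusted p = 0.883 from limma-trend). It was 0.64 without control library 1 and 1.64 without control library 3, where the unadjusted p was 0.0337.

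Lrp6, the related co-receptor, had 2105, 2119 and 2073 normalized counts in control and 1405, 1870.0 and 1745 in Bmal1;CKO. It was the 1 gene of the 10 in which every Bmal1;CKO library lay below every control library (exact permutation test, two-sided, p = 0.1, which is the lowest p possible with 3 libraries against 3). The means were 2099 ± 23.9 and 1673 ± 240.6 (SD, n = 3 each), and on the log2 scale the difference was -0.34 (standard error 0.27, 95% confidence interval -0.97 to 0.29, adjusted p = 0.883 from limma-trend). With 1 library left out it was between -0.42 and -0.22.

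Per kb of exon, Lrp6 exceeded Lrp5 in each of the 6 libraries. The ratio of Lrp6 to Lrp5 was 12.4, 7.94 and 3.05 in control libraries 1 to 3 and 2.36, 3.59 and 1.84 in Bmal1;CKO libraries 4 to 6. Control library 3 lay within the Bmal1;CKO range, so the ratios of the groups overlapped.

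Tspan12 encodes the tetraspanin that helps FZD4 respond to Norrin. It had 306, 1258 and 1430.4 normalized counts in control and 536, 410.3 and 693 in Bmal1;CKO. Control library 1 was the lowest of all 6 and control libraries 2 and 3 the highest, so that the group means of 998 ± 605 and 546 ± 142 (SD, n = 3 each) hid a split among the controls. The log2 fold change of -0.62 (standard error 0.65, adjusted p = 0.886 from limma-trend) became -1.33 without control library 1 (unadjusted p = 0.00791) and -0.22 without control library 3. Pericyte markers, among them Pdgfrb and Rgs5, had the same order of control libraries 1 to 3, as did the astrocyte markers. The order was not particular to these markers. Lrp5, Ctnnb1, Axin2 and the number of genes detected (21598, 23889 and 26420) had it too, while Ndp, Fzd4, Lrp6, Apcdd1, Lef1 and Nkd1 did not. Pericyte markers summed to 2364, 6979 and 45844 normalized counts in control libraries 1 to 3 and to 4101 to 7571 in Bmal1;CKO. Unlike for Tspan12, control library 2 lay within the Bmal1;CKO range of this sum. Astrocyte markers summed to 520.5, 2157 and 6168 in control libraries 1 to 3. The part of either cell type in the Tspan12 values was not tested.

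Ctnnb1, the gene of β-catenin, which also links cadherins to actin at cell junctions, was the highest of the 10 genes per kb of exon in each library. It had 5736, 14798 and 26583 normalized counts in control and 10089.9, 10074 and 17291 in Bmal1;CKO. The control libraries spanned the whole Bmal1;CKO range. The order of libraries 1, 2 and 3 was the same as in Tspan12, Lrp5 and Axin2. It was also that of the number of genes detected and of the pericyte and astrocyte marker sums. The log2 fold change of -0.12 (standard error 0.54, 95% confidence interval -1.38 to 1.14, adjusted p = 0.971 from limma-trend) turned to 0.39 without control library 3 and was -0.72 without control library 1, so no direction was set. Ctnnb1 lies on the forward strand of chromosome 9 from 120929216 to 120960507 and shares 759 exonic bases with Ulk4 on the other strand, which had 68 to 301 reads per library against 4662 to 37205 for Ctnnb1.

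**Figure D2:**
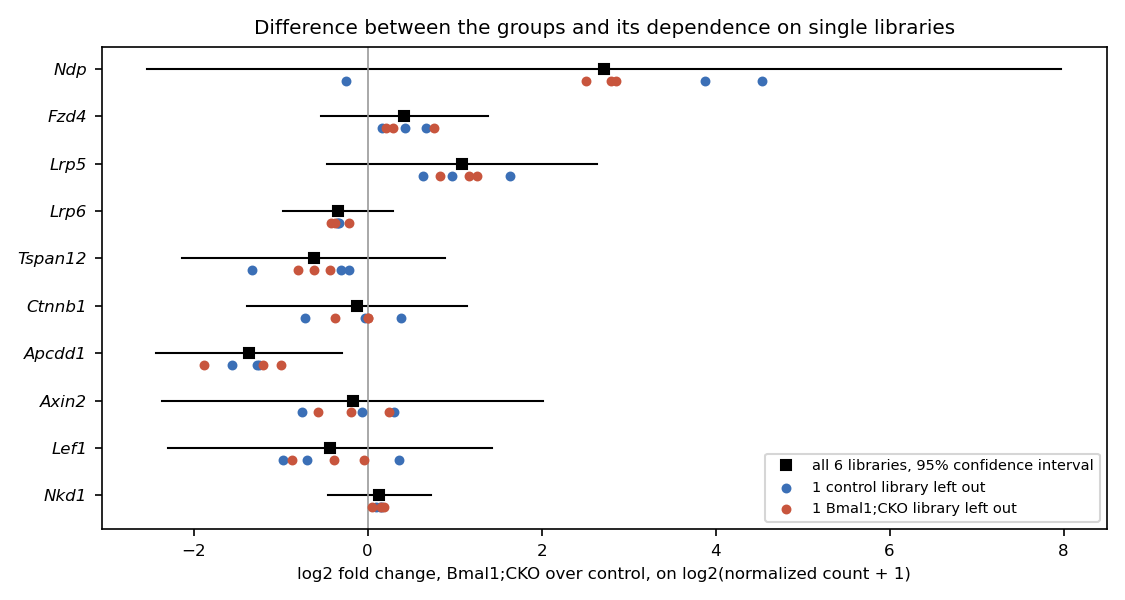
Log2 fold change of each gene, Bmal1;CKO over control (black squares, with 95% confidence intervals from limma-trend), and the same value with 1 control (blue) or 1 Bmal1;CKO (red) library left out. The interval of Apcdd1, from -2.43 to -0.29, is the 1 that lies wholly on one side of 0, and the points of Ndp, Ctnnb1, Axin2 and Lef1 fall on both sides.

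Among the 4 targets, Apcdd1 differed most between the groups. It encodes a membrane inhibitor of Wnt signalling that is known in retinal and brain endothelium, and it lies on the forward strand of chromosome 18 from 62922231 to 62961179. It had 10909.9, 7234 and 11128 normalized counts in control and 3006, 2264 and 7613 in Bmal1;CKO. Libraries 4 and 5 were below every control library, and library 6 was just above control library 2. The means were 9757 ± 2188 and 4294 ± 2898 (SD, n = 3 each), so that the Bmal1;CKO mean was 0.440 of the control mean.

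The log2 fold change of Apcdd1 was -1.36 (standard error 0.46, unadjusted p = 0.0192, adjusted p = 0.883 from limma-trend), and it did not pass the correction over all genes. It was negative with each library left out, from -1.88 without Bmal1;CKO library 6 to -1.001 without Bmal1;CKO library 5. The unadjusted p was 0.0579 without control library 3, 0.0692 without Bmal1;CKO library 4 and 0.0710 without Bmal1;CKO library 5, so the call rested on those libraries. Endothelial marker sums were also lowest in library 5, at 64270.2 normalized counts. The sum was 111376 in library 4, near the 111907 and 114114 of control libraries 2 and 3. Whether the endothelial share of the RNA had a part in the Apcdd1 values was not tested.

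Lef1 had 1638, 377 and 258 normalized counts in control and 374, 233 and 739.8 in Bmal1;CKO. Control library 1 was the highest and Bmal1;CKO library 6 the second, the same 2 libraries that held the most endothelial marker RNA, at 198604 and 144624 normalized counts. Its log2 fold change of -0.43 (standard error 0.80, adjusted p = 0.919 from limma-trend) was 0.36 without control library 1, so its direction rested on that library. An antisense gene, Gm43352, shares 1208 exonic bases with Lef1 and had 218 reads in control library 1 against 1331 on Lef1. The libraries do not keep strand, so reads from the shared bases cannot be assigned to one of them.

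Axin2, a negative regulator that serves as a general readout of β-catenin activity, was the lowest of the 10 genes per kb of exon in 5 of 6 libraries. It had 36.9, 97.4 and 161 normalized counts in control and 40.8, 129.6 and 76.6 in Bmal1;CKO, from 29 to 226 reads. Its log2 fold change of -0.17 (standard error 0.94, 95% confidence interval -2.36 to 2.02, adjusted p = 0.978 from limma-trend) was between -0.75 and 0.30 with 1 library left out. A change of 4-fold in either direction lies within that interval, so with these libraries a difference of that size in Axin2 was not excluded.

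Nkd1, a target whose product binds Dishevelled and limits Wnt signalling, varied least. It had 2178, 2271 and 2056 normalized counts in control and 2298, 2672 and 2184 in Bmal1;CKO. Its highest library was 1.30 times its lowest, a ratio smaller than that of all but 0.749% of the 17085 tested genes with a read in every library, whose median was 2.96. The ratio of Lrp6 was 1.51, and 4.71% of those genes had a smaller one. For the other genes with a read in every library it was between 2.57 for Fzd4 and 7.02 for Lef1. Between the groups Nkd1 differed by 0.13 on the log2 scale, within its error (standard error 0.25, 95% confidence interval -0.46 to 0.72, adjusted p = 0.923 from limma-trend).

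In control, the order of the 10 genes by mean normalized count per kb of exon was Ctnnb1 (3025 ± 2013, SD, n = 3), Apcdd1 (757 ± 169.8), Nkd1 (476 ± 23.6), Tspan12 (302 ± 183), Fzd4 (279 ± 95.3), Ndp (181 ± 194), Lrp6 (154 ± 1.75), Lef1 (86.2 ± 87.004), Lrp5 (27.2 ± 19.8) and Axin2 (17.9 ± 11.3). The first 3 kept this order in each control library, while every later neighbour pair from Tspan12 and Fzd4 onward overlapped in its range. In Bmal1;CKO the mean of Apcdd1, 333 ± 225, ranked 4th, below Nkd1 at 523 ± 56.1 and Fzd4 at 379 ± 138 (SD, n = 3 each). Bmal1;CKO library 6 kept Apcdd1 second.

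The sequence before the start of these genes was searched for the E-box CACGTG, the element that BMAL1 and CLOCK bind, and for the TCF/LEF element CTTTGAT, on both strands. Windows of 300 bases, from 250 before to 50 after an annotated start, were at hand from RefSeq (GRCm38.p6) for 7 of the 10 genes, and Lrp5, Lrp6 and Apcdd1 had none. Of the 11 windows of these 7 genes, 1 held the E-box, a downstream start of Lef1, and 0 held the TCF/LEF element, against 7.15% and 3.73% of all 32851 windows. The Lef1 window is shown as the 1 with a match, its E-box in capitals, 79 bases before the start, at chr3:131156044-131156343 on the forward strand. The windows of Ndp (chrX:16911725-16912024, reverse strand) and Fzd4 (chr7:89404116-89404415, forward strand), ligand and receptor, are shown beside it, with no match and therefore no capitals.
Lef1: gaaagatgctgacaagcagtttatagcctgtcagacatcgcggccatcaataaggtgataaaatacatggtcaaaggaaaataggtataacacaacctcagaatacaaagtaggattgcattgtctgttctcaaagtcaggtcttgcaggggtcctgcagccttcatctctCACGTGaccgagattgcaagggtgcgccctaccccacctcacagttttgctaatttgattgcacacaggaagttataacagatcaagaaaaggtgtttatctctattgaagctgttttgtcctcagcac
Ndp: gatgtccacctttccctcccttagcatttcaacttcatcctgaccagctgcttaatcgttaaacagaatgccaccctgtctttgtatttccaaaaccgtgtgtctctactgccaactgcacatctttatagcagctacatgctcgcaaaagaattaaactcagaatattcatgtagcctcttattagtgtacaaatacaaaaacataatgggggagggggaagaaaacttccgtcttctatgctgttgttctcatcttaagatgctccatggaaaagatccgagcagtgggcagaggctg
Fzd4: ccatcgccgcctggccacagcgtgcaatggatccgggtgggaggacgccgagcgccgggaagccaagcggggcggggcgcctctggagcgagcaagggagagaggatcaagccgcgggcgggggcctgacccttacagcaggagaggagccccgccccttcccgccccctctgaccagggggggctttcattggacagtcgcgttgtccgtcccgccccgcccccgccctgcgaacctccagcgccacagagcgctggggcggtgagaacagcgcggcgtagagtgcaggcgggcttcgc
The Ndp window had 43.0% G and C and 5 CpG dinucleotides, and the Fzd4 window 72.7% and 32. A match is a description of the letters and no evidence of binding.

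Summed endothelial marker levels differed between libraries, so each gene was also expressed relative to the mean log2 level of the 14 endothelial markers. Whether the endothelial share of the RNA differed was not tested. The β-catenin target Cldn5 had been left out of the markers. On this scale Fzd4 was the 1 gene of the 10 whose groups did not overlap, with Bmal1;CKO higher (7.33% of all genes tested, 6.84% with Bmal1;CKO higher). It lay at -2.02, -2.18 and -1.51 in control and at -0.75, -0.91 and -1.12 in Bmal1;CKO, a difference of 0.97 on the log2 scale (two-sided exact permutation test, p = 0.1, 0.667 after Benjamini-Hochberg adjustment over the 10 genes). The difference was between 0.83 and 1.17 with 1 library left out. It contains the lower level of the endothelial markers as well as the higher level of Fzd4. Relative to the same mean, Apcdd1 differed by -0.81 on the log2 scale (exact permutation test, p = 0.2, adjusted p = 0.667), with library 6 at 0.10 overlapping control library 1 at 0.09. Lrp5 was higher by 1.63 (exact permutation test, p = 0.2, adjusted p = 0.667), and the other 7 genes had differences from -0.07 for Tspan12 to 3.27 for Ndp, with exact permutation p of 0.4 to 1.0. With the median in place of the mean of the markers, 3 of 10, Fzd4, Lrp5 and Apcdd1, did not overlap between groups (6.88% of all genes tested on that scale, exact permutation test, p = 0.1 and adjusted p = 0.333 for each).

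**Figure D3:**
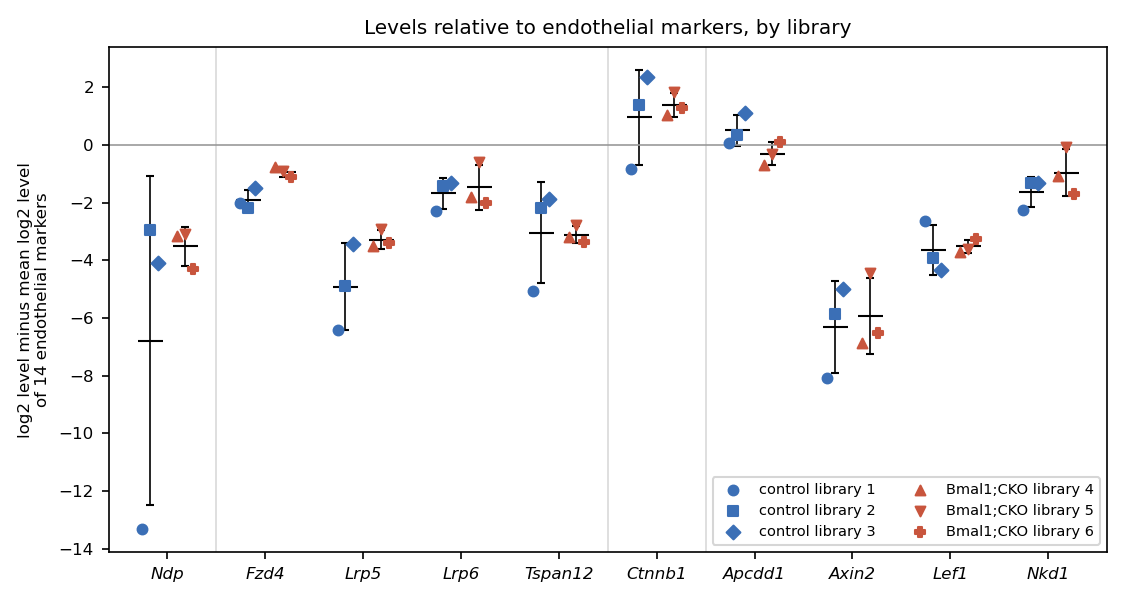
Level of each gene minus the mean log2 level of the 14 endothelial markers, per library, with the mean (bar) and SD (n = 3) of each group. The 3 Bmal1;CKO libraries lie above the 3 control libraries for Fzd4, and the 2 groups overlap for each of the other 9 genes.

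The wider pathway was followed through 6 lists, in which 0 genes had an adjusted p under 0.05 by limma-trend. Of 19 Wnt ligands, 9 had enough reads to be tested. In Bmal1;CKO 7 of them were higher and 2 lower (56.6% and 43.4% of all genes tested). At an unadjusted p under 0.05 there were 0 (4.92% of all genes tested). Of these 9 ligands, 1 reached 10 reads in every library. The most abundant by normalized count were Wnt5b, a ligand best known outside the β-catenin branch, and Wnt3. Wnt5b had 7.38, 539 and 800.2 normalized counts in control and 1115, 1157 and 1095 in Bmal1;CKO. Its groups did not overlap, and its log2 fold change of 2.87 (standard error 1.58, adjusted p = 0.883 from limma-trend) was 1.31 by edgeR. It rested on control library 1, which had 6 reads, since it was 0.77 without that library, and it was 4.06 without control library 3.
Wnt3 had 191, 165 and 273 normalized counts in control and 387, 376 and 387 in Bmal1;CKO, with groups that did not overlap and a log2 fold change of 0.90 (standard error 0.53, adjusted p = 0.883 from limma-trend). Wnt5b and Wnt3 were the 2 of 9 tested ligands without overlap, both higher (11.2% of all genes tested, 6.62% higher). Wnt7a, which with Wnt7b activates β-catenin in brain rather than retinal vessels, had at most 0.864 normalized counts in any library. It is named here after its values were seen.

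Of 18 other receptors, co-receptors and R-spondin genes, 17 were tested, 11 higher and 6 lower. Their median log2 fold change was 0.93, and 0.13 over the 8 genes that reached 10 reads in each library. The unadjusted p was under 0.05 for 2 of them (4.92% of all genes tested), a count that was 0 by edgeR, 1 by DESeq2 and 0 without control library 2 or Bmal1;CKO library 4 or 5. Without control library 1 the median was -0.10. Fzd6 had 2102, 1464 and 1130.3 normalized counts in control and 232, 288 and 1139 in Bmal1;CKO, which is -1.83 on the log2 scale (standard error 0.65, unadjusted p = 0.0231, adjusted p = 0.883 from limma-trend). As in Apcdd1, libraries 4 and 5 were low and library 6 overlapped the controls. Fzd7 had 0, 0 and 265 normalized counts in control and 446, 137 and 213 in Bmal1;CKO, so its groups overlapped and its fitted change depends on the pseudocount. Adgra2 (GPR124), a co-activator of Wnt7 signalling in brain endothelium, had 1071 ± 361 normalized counts in control and 746 ± 222 in Bmal1;CKO (SD, n = 3 each), with overlapping groups.

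The 15 transducers and members of the β-catenin destruction complex were all tested, each with 10 reads or more per library, 10 higher and 5 lower, with 0 at an unadjusted p under 0.05 and a median log2 fold change of 0.31, which was 0.08 without control library 1 and 0.13 without Bmal1;CKO library 6. Csnk1a1, the casein kinase 1α that starts the phosphorylation of β-catenin, had 12853, 15145 and 11660.0 normalized counts in control and 8970.4, 9619 and 10116 in Bmal1;CKO, without overlap (log2 fold change -0.46, standard error 0.22, adjusted p = 0.883 from limma-trend). It was the 1 lower gene of the 15 without overlap, beside 1 higher gene (11.2% of all genes tested, 4.54% lower and 6.62% higher). Dvl1, a Dishevelled adaptor, had 3834 ± 1635 and 5503 ± 1897 (SD, n = 3 each), with overlap.
Of 13 inhibitor genes, 9 were tested, 6 higher and 3 lower, with 0 at an unadjusted p under 0.05. Dkk3, a Dickkopf family gene expressed by retinal neurons and glia, was the most abundant, with 2116 normalized counts in control library 1 and 8508 to 12596 in the other 5 libraries. Kremen1, a receptor for Dickkopf proteins, had 1091 ± 746 in control and 1784 ± 817 in Bmal1;CKO (SD, n = 3 each).

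Other β-catenin targets did not share the direction of Apcdd1 throughout. Of 8, 6 were tested, 2 higher and 4 lower, with a median log2 fold change of -0.19. Without Bmal1;CKO library 5 the median was 0.11, and without library 6 it was -0.50. Ccnd1, the cyclin D1 gene, was the 1 at an unadjusted p under 0.05 (4.92% of all genes tested), with 6954, 4193 and 5411 normalized counts in control and 10293.9, 9748 and 7375 in Bmal1;CKO. It was also the 1 of the 6 without overlap (11.2% of all genes tested, 6.62% higher). Its log2 fold change was 0.74 (standard error 0.28, unadjusted p = 0.0297, adjusted p = 0.883 from limma-trend). The count for the list was 0 without control library 2 or 3 or Bmal1;CKO library 4 or 5. The groups overlapped for Myc, with 4353 ± 1076 and 3813 ± 1434 normalized counts (SD, n = 3 each). Tcf7, which encodes the TCF1 factor and is named after its values were seen, had 3347, 923 and 1866 normalized counts in control and 1069, 649 and 2143 in Bmal1;CKO. As for Lef1, control library 1 was the highest and Bmal1;CKO library 6 the second.

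Endothelial genes known to respond to Norrin gave 1 higher and 5 lower of 6 (56.6% and 43.4% of all genes tested). Their median log2 fold change was -0.37, beside -0.50 for the 14 endothelial markers. The list includes Plvap, which the pathway keeps low, so its median does not measure pathway activity. The median of the 6 was -0.18 without control library 1, -0.08 without Bmal1;CKO library 5 and -0.61 without library 6. By limma-trend 0 of the 6 had an unadjusted p under 0.05 (4.92% of all genes tested). Cldn5, the claudin of the barrier junctions, had 201094, 110074 and 87590.0 normalized counts in control and 112962, 60099 and 116942 in Bmal1;CKO. Plvap, which marks fenestrated vessels and is known to be kept low by the pathway, was the higher one, with 38889, 18527 and 16571 in control and 46279, 17718 and 38414 in Bmal1;CKO. The groups overlapped in both genes, and their log2 fold changes were -0.43 (standard error 0.44) and 0.47 (standard error 0.47). Slc38a5, a glutamine transporter gene named after its values were seen, had the lowest log2 fold change of the 6, at -1.21 (standard error 0.61, adjusted p = 0.883 from limma-trend).

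**Figure D4:**
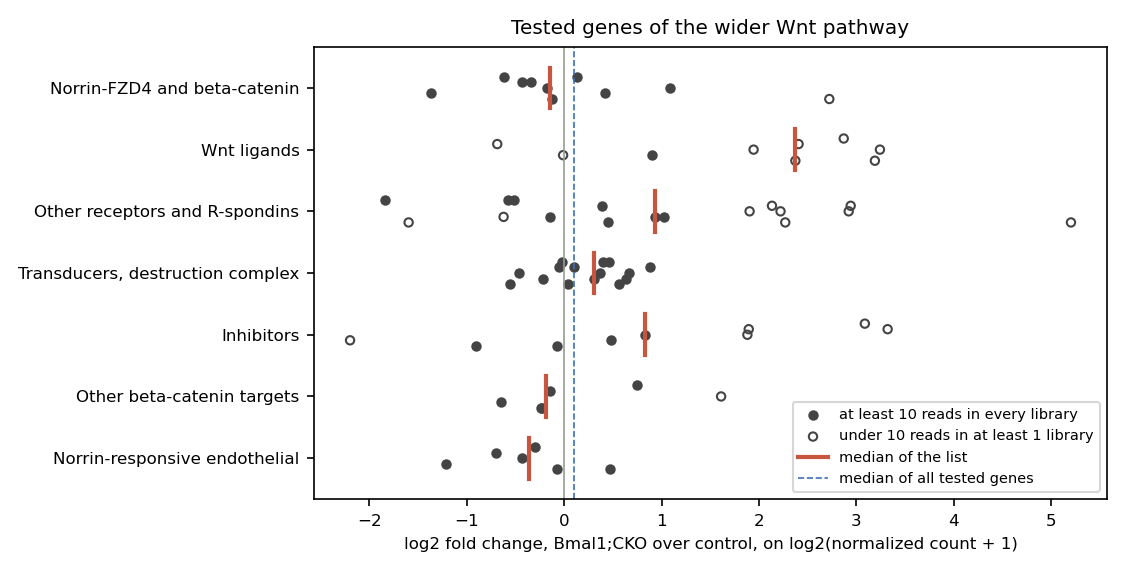
Log2 fold change, Bmal1;CKO over control, of each tested gene of the 10 genes followed here and of 6 wider lists, with genes at under 10 reads in at least 1 library as open circles, the median of each list in red and that of all genes tested as a dashed line at 0.11. Most values above 1.5 are open circles.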

How the data were processed

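RNA of sorted VECs was amplified (Smart v4) and sequenced from 6 Nextera XT libraries. Per the labels and the paper's methods, the authors used FastQC, Trimmomatic, Bowtie on mm10 (Ensembl GRCm38 v87), featureCounts and DESeq2. The strand setting is not given in the sources used here. The deposited table holds a signal per gene and library, each count scaled by its library's DESeq2 size factor, and whole reads were recovered for 100% of the values within 0.05 of a whole number. Its fold changes and p-values of the authors' own comparison were not used.

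The 20459 genes that reached 10 reads in 3 or more libraries were tested with limma-trend on log2(normalized count + 1), with Benjamini-Hochberg adjustment over all of them, in R 4.3.3 with limma 3.58.1. Exact permutation tests served for single values. Alternatives were edgeR 4.0.16 (TMM or size factors), DESeq2 1.42.0, limma-voom, pseudocounts of 0.5 and 10, filters of 1 read in total and of 10 reads in every library, medians of the markers, and each library left out. The tests were also run on simulated counts. Their spread and changes were set rather than taken from these libraries, so that run does not show the power for these genes. Exon lengths and coordinates came from GENCODE M21 (GRCm38), with 55141 of 55487 identifiers matched. Outside the 10 genes, each wider pathway list is described by the genes at an unadjusted p under 0.05 and its 2 most abundant genes. Marker lists are described by summed levels and counts, with at most 3 genes named. The genes and lists were chosen with earlier results of these data known. Total counts limit precision only through counting error, and the p-values measure the spread between these libraries. Figures used matplotlib 3.10.9.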

Additional observations from a re-analysis of the deposited data

How the results depend on the processing

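No paired analysis was possible because the columns of the table carry running numbers that differ from the library numbers in the labels, so no replicate number could be assigned. Of the 476 recomputed values, 414 stood. To stand, tested values kept direction and side of the threshold, and counts stayed within 1.5 times. List medians kept their sign and moved by less than 1 SD between libraries. Levels relative to markers had an exact permutation p of 0.1 at the lowest, so only their direction could change. Over all genes tested, the count at an adjusted p under 0.05 was 67 by DESeq2 and 1 with either other filter, against 0. The other receptors had 0 genes at an unadjusted p under 0.05 by edgeR with either scaling and 1 by DESeq2 or with at least 10 reads in each library. Their median log2 fold change was 0.25 by edgeR with TMM, 0.23 with size factors, 0.24 by DESeq2 and 0.13 with 10 reads in each library. With 1 read in total as the filter, 1 inhibitor and 2 other β-catenin targets had an unadjusted p under 0.05. Relative to the median endothelial marker, Lef1 differed by -0.000129. The cause of these shifts was not tested.

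With 1 library left out, the genes at an adjusted p under 0.05 ranged from 0 to 6 (6 without control library 1), and at an unadjusted p under 0.05 from 444 without Bmal1;CKO library 5 to 2444 without control library 3. Among the 10 genes there were 0 without Bmal1;CKO library 4 or 5, beside 472 and 444 of all 20459 genes tested. Without control library 1 there were 2, Apcdd1 and Tspan12, beside 1769 of all 20459 genes tested. Log2 fold changes ranged from -0.25 to 4.53 for Ndp, -0.72 to 0.39 for Ctnnb1 (0.0090 and 0.010 without Bmal1;CKO libraries 4 and 5), -0.75 to 0.30 for Axin2 (0.25 without Bmal1;CKO library 4), -0.97 to 0.36 for Lef1 and -0.49 to 0.029 for Arntl. Relative to the endothelial markers the ranges were -0.0031 to 5.19 for Ndp, -0.23 to 0.49 for Lrp6, -1.08 to 0.52 for Tspan12, -0.47 to 1.13 for Ctnnb1, -0.51 to 1.04 for Axin2 and -0.23 to 0.61 for Lef1, and relative to the Müller glia markers -0.48 to 4.19 for Ndp. Genes at an unadjusted p under 0.05 numbered 0 to 4 for Wnt ligands, 0 to 3 for other receptors (median log2 fold change -0.10 without control library 1 to 1.09), 0 to 1 for transducers, inhibitors and other β-catenin targets, and 0 to 2 for Norrin-responsive genes. Median log2 fold changes ranged from -0.26 without control library 1 to 1.35 for inhibitors and from -0.50 to 0.11 without Bmal1;CKO library 5 for other β-catenin targets. Among all genes at an unadjusted p under 0.05, 64.3% were higher in Bmal1;CKO by limma-trend and 50.1% by edgeR with TMM. Axin2 rested on 29 to 226 reads per library, and Ndp had 0 reads in 1 library.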
